A study of Mus musculus with 6 samples.

Results

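Expression of the MHC class II antigen presentation genes was examined in small intestinal adenomas of ApcMin mice with and without Paneth cell (PC) depletion. The 8 members, *H2-Aa*, *H2-Ab1*, *H2-Eb1*, *H2-DMa*, *H2-DMb1*, *Cd74*, *Ctss* and *Ciita*, were taken by gene name from a table of 48440 genes, as the chains of the class II molecule, its loading factors and its transactivator. All 8 passed the filter on low values, a mean of at least 1 FPKM (fragments per kilobase, a level corrected for gene length and library size) over the 6 libraries, as did 14240 genes in all. PCdel mice carried Defa4-Cre, an IRES-Cre cassette knocked into the *Defa4* locus, and Rosa26 iDTA/WT, in which Cre removes a stop cassette in front of diphtheria toxin A in cells of the PC lineage. Control mice (WT) were littermates with Rosa26 iDTA/WT and no Cre. Both groups were ApcMin, on a C57BL/6 background and older than 42 days, and the Cre allele was made in 129/svJ embryonic stem cells. The WT libraries are QC4, QC5 and QC6 and the PCdel libraries QC3, QC8 and QC10, each from adenoma tissue. Whether each library came from a different mouse, and whether adenomas were pooled, is not given in the sources used here. The p-values measure the spread between these 6 libraries only. Aligned sequence came to between 5.407 and 5.876 gigabases per library. A pair of PC products, named here after their values had been seen, checked the genotype labels. *Defa21* lay between 129.2 and 351.8 FPKM in the WT libraries and between 20.2 and 35.4 in the PCdel libraries, and *Lyz1* was also lower in every PCdel library than in any WT library.

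MHC class II molecules are pairs of an alpha and a beta chain that display peptides from endocytosed proteins to CD4+ T cells. The new pair is held by the invariant chain, encoded by *Cd74*, which the protease cathepsin S (*Ctss*) trims in endosomes, and the heterodimer H2-DM then exchanges the remaining fragment for a peptide. *Ciita* is recruited to factors bound at the X and Y boxes of class II promoters and drives the transcription of these genes. In the small intestine dendritic cells, macrophages and B cells carry class II, and enterocytes can be induced to express it by interferon gamma.

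The promoters are shown because the members with a window near their start in the deposited tables differ in which of the letters searched these 150 bases hold. RefSeq promoter sequence (GRCm38.p6) was matched by gene symbol for 5 of the 8 members, and no entry was matched for *H2-Ab1*, *Cd74* and *Ciita*. The windows of *H2-DMa* lie 12350 and 9664 bases from the start that the deposited tables give and are not printed. Each window ends at the base before the RefSeq start and runs 5′ to 3′ on the strand of the gene. Capitals mark the letters searched on both strands, the X box core AGNAACNGA, the Y box core GATTGG, the cyclic AMP response element TGACGTCA and the interferon-stimulated response element core GAAANNGAA. The letters were chosen with these promoters in view. The windows lie at chr17:34287824-34287973 (*H2-Aa*, minus strand), chr17:34305717-34305866 (*H2-Eb1*, plus strand), chr17:34153041-34153190 (*H2-DMb1*, plus strand) and chr3:95526636-95526785 (*Ctss*, plus strand).
H2-Aa: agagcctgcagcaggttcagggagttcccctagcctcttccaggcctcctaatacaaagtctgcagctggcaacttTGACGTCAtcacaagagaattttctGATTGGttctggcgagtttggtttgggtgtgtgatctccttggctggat
H2-Eb1: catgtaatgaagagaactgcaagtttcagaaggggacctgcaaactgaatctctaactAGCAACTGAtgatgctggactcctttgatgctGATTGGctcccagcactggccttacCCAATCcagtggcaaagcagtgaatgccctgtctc
H2-DMb1: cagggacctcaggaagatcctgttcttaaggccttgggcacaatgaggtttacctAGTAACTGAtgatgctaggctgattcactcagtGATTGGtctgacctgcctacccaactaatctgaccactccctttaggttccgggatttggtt
Ctss: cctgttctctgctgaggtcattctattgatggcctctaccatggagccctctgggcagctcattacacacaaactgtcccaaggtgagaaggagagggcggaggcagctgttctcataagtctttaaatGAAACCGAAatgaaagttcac

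In *H2-Eb1* the X box core stood 92 to 84 bases before the start and the Y box core 60 to 55 bases before it, with another Y box core on the reverse strand at 35 to 30. *H2-DMb1* had the same arrangement, with the X box core at 95 to 87 and the Y box core at 62 to 57. Its RefSeq start lies 119 bases from the start in the deposited tables, against 4 for *H2-Aa*, 10 for *H2-Eb1* and 0 for *Ctss*. By the deposited tables, *H2-DMb1* starts inside this window, upstream of both boxes. *H2-Aa* held the Y box core at 49 to 44 and the cyclic AMP response element at 74 to 67. The strict letters of the X box core were not in this window, and this search would miss an X box with other letters. *Ctss*, whose product works on *Cd74* but also in other pathways, held the interferon-stimulated response element core at 21 to 13 and none of the other letters. No printed match overlapped another. Of all 32851 RefSeq windows of this length, 10.9% held the Y box core, 2.47% the X box core, 1.36% the cyclic AMP response element and 3.95% the interferon-stimulated response element core. An X box core followed by a Y box core within 60 bases stood in 32 windows (0.0974%). A match is a description of the letters and does not show that a factor binds there.

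The members spanned more than 2 orders of magnitude in level and kept their order in every library. By mean FPKM, a level per length, over the 6 libraries, *Cd74* was the highest (764.0), followed by *H2-Aa* (316.1), *H2-Ab1* (278.1), *H2-Eb1* (162.2), *Ctss* (115.5), *H2-DMb1* (35.0), *H2-DMa* (21.5) and *Ciita* (3.66). Each gene was above the next in this order in 6 of 6 libraries, and the narrowest step, from *H2-Aa* to *H2-Ab1*, was 1.14-fold. *Cd74* was at percentile 99.4 of the mean levels of all genes tested, and *Ciita* at percentile 23.2. The 8 members together took between 0.185% and 0.430% of the summed FPKM of a library.

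**Figure D1:**
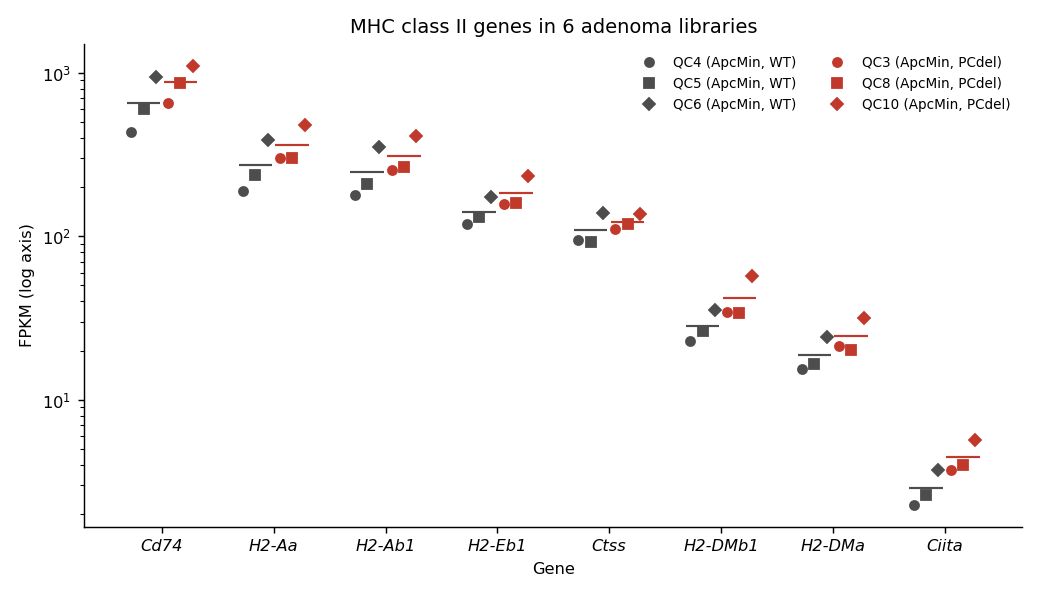
FPKM (log axis) of the 8 members in the WT libraries (grey) and the PCdel libraries (red), with horizontal lines for the means of 3 libraries. The order of the genes from *Cd74* to *Ciita* is the same in all 6 libraries, and QC6 and QC10 (diamonds) are the highest library of their group for each gene.

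No member passed the adjusted threshold in the comparison of the genotypes. The mean of every member was higher in PCdel adenomas, by between 1.13-fold for *Ctss* and 1.55-fold for *Ciita*. With limma on log2(FPKM + 1) and Benjamini-Hochberg adjustment, 0 of the 8 members had an adjusted p under 0.05, against 0.0140% of all genes tested (*Hist2h2aa1* and *Rab43*). Unadjusted, 1 member, *Ciita*, was below 0.05 and higher, against 2.70% of all genes. In 1 member, again *Ciita*, the groups did not overlap and PCdel was higher, against 6.00% of all genes. The mean log2 value was higher in PCdel adenomas in 8 of 8 members and in 63.1% of all genes. The median log2 fold change was 0.41 over the members and 0.042 over all genes tested. In bulk tissue, more cells that carry class II and more class II RNA per cell cannot be told apart.

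Of the chains, *H2-Aa*, the alpha chain of I-A, was at 189.9, 235.9 and 387.9 FPKM in WT libraries QC4, QC5 and QC6 and at 302.6, 302.4 and 478.1 FPKM in PCdel libraries QC3, QC8 and QC10. The PCdel libraries QC3 and QC8 lay above QC4 and QC5 but below QC6, so the groups overlapped. The means were 271.2 ± 103.6 and 361.0 ± 101.3 FPKM (SD, n = 3 libraries each), which gave a log2 fold change in limma of 0.44 (standard error, SE, 0.31, adjusted p = 1.0). The gene (ENSMUSG00000036594.14) lies at 34282744 to 34287827 on chromosome 17 of GRCm38, and its promoter is the window with the cyclic AMP response element. *H2-Ab1*, which encodes the beta chain of the same molecule (chromosome 17, 34263209 to 34269418, ENSMUSG00000073421.5), was at 178.1, 209.0 and 351.5 FPKM in QC4, QC5 and QC6 and at 256.2, 264.8 and 409.4 FPKM in QC3, QC8 and QC10. The libraries stood in nearly the same order as for *H2-Aa*, with QC6 again inside the PCdel range. Its log2 fold change was 0.36 (SE 0.30, adjusted p = 1.0 in limma). *H2-Eb1*, the beta chain of I-E (chromosome 17, 34305877 to 34316199, ENSMUSG00000060586.10), was at 118.2, 131.1 and 172.7 FPKM in QC4, QC5 and QC6 and at 157.9, 160.2 and 232.8 FPKM in QC3, QC8 and QC10. QC6 again lay above QC3 and QC8. The log2 fold change was 0.38 (SE 0.21, adjusted p = 1.0 in limma). Its alpha chain partner is a pseudogene in the C57BL/6 haplotype, and *H2-Ea-ps* was listed at 0 in all 6 libraries.

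Of the loading factors, *Cd74* (chromosome 18, 60803848 to 60812646, ENSMUSG00000024610.14) was at 431.8, 596.9 and 936.7 FPKM in QC4, QC5 and QC6 and at 650.5, 865.9 and 1102 FPKM in QC3, QC8 and QC10. It had the widest spread of the members within a group, with the highest WT library at 2.17 times the lowest. Its log2 fold change was 0.45 (SE 0.32, adjusted p = 1.0 in limma). *H2-DMb1*, the beta chain of H2-DM (chromosome 17, 34153072 to 34160230, ENSMUSG00000079547.3), was at 22.8, 26.3 and 35.3 FPKM in QC4, QC5 and QC6 and at 34.3, 34.0 and 57.2 FPKM in QC3, QC8 and QC10. Here QC6 exceeded QC3 and QC8 by a small margin, while QC10 stood well above the rest. The log2 fold change of 0.54 was the largest of the 8 with a pseudocount of 1, and with 0.1 that of *Ciita* was larger, 0.62 against 0.55. With a pseudocount of 1 its SE was 0.25, and its unadjusted and adjusted p in limma were 0.0688 and 1.0. Transcripts of the neighbouring copy *H2-DMb2* hold 31.4% of the 31-mers of *H2-DMb1*, so the split of reads between them is uncertain. *H2-DMb2* was at 3.88, 4.10 and 5.37 FPKM in QC4, QC5 and QC6 and at 5.33, 5.44 and 7.78 FPKM in QC3, QC8 and QC10.

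*H2-DMa*, the alpha chain of H2-DM (chromosome 17, 34135182 to 34139101, ENSMUSG00000037649.9), was at 15.4, 16.5 and 24.2 FPKM in QC4, QC5 and QC6 and at 21.4, 20.3 and 31.4 FPKM in QC3, QC8 and QC10. Its groups overlapped through QC6, and the log2 fold change was 0.37 (SE 0.23, adjusted p = 1.0 in limma). Transcripts annotated to its upstream neighbour *Brd2* hold 9.23% of its 31-mers. *Brd2*, named after its values had been seen, was at 44.5, 42.9 and 34.0 FPKM in QC4, QC5 and QC6 and at 45.6, 56.3 and 39.3 FPKM in QC3, QC8 and QC10, lowest in the library where *H2-DMa* was highest among the WT libraries. *Ctss* (chromosome 3, 95526786 to 95556403, ENSMUSG00000038642.10) was at 95.5, 92.8 and 137.9 FPKM in QC4, QC5 and QC6 and at 111.1, 118.8 and 137.2 FPKM in QC3, QC8 and QC10. It was the member in which a WT library, QC6, was the highest of all 6. Its log2 fold change of 0.19 was the smallest (SE 0.18, adjusted p = 1.0 in limma).

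*Ciita*, the transactivator (chromosome 16, 10488178 to 10527564, ENSMUSG00000022504.9), was at 2.27, 2.61 and 3.71 FPKM in QC4, QC5 and QC6 and at 3.73, 3.96 and 5.64 FPKM in QC3, QC8 and QC10. Every PCdel library was above every WT library, but QC3 and QC6 were only 0.02 FPKM apart. The means were 2.87 ± 0.752 and 4.45 ± 1.04 FPKM (SD, n = 3 libraries each). By exact permutation (two-sided) p was 0.1, and groups of 3 cannot reach a smaller one. The log2 fold change was 0.49 (SE 0.19, unadjusted p = 0.0377, adjusted p = 1.0 in limma). With quantile normalization the unadjusted p was 0.114 and with median centring 0.0924, and in both the groups overlapped. *Ciita* overlaps *Dexi* on the other strand, and whether reads were counted by strand is not given in the sources used here. *Dexi*, named after its values had been seen, was at 7.41, 7.62 and 6.33 FPKM in QC4, QC5 and QC6 and at 8.10, 7.81 and 7.68 FPKM in QC3, QC8 and QC10. As for *Ciita*, each PCdel library was above each WT library by a narrow margin, where 6.00% of all genes did not overlap and were higher. Transcripts of *Dexi* hold 2.28% of the 31-mers of *Ciita*.

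The libraries fell into the same pattern in nearly every member. Among WT adenomas QC6 was the highest in 8 of 8 members, and among PCdel adenomas QC10 was the highest in 8 of 8. QC3 and QC8 were above QC4 and QC5 in 8 of 8 members, and QC6 was above both QC3 and QC8 in 7 of 8, *Ciita* being the exception. The share of all genes tested with these orders was not counted, so the counts are not a trait particular to the members. Pearson's r of log2(FPKM + 1) over the 6 libraries lay between 0.84 (*H2-DMb1* and *Ctss*) and 0.995 (*H2-Aa* and *H2-Ab1*) for the 28 pairs of members, with a median of 0.95. These points share their 6 libraries and their genotypes, and the correlations are descriptions. The 3 chains summed to 658.1 ± 224.5 FPKM in WT and 854.8 ± 229.9 FPKM in PCdel adenomas (SD, n = 3 each), a ratio of means of 1.30. *Cd74*, *Ctss* and the H2-DM genes summed to 810.7 ± 292.2 and 1062 ± 256.2 FPKM, a ratio of 1.31. In both sums the difference between the means of all 6 libraries was smaller than the SD within either group. On the log2 scale the difference of the chains was 0.40, from 0.19 (without QC10) and 0.21 (without QC4) to 0.66 (without QC6), and that of the loading factors 0.42, from 0.19 (without QC4) and 0.25 (without QC10) to 0.69 (without QC6).

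**Figure D2:**
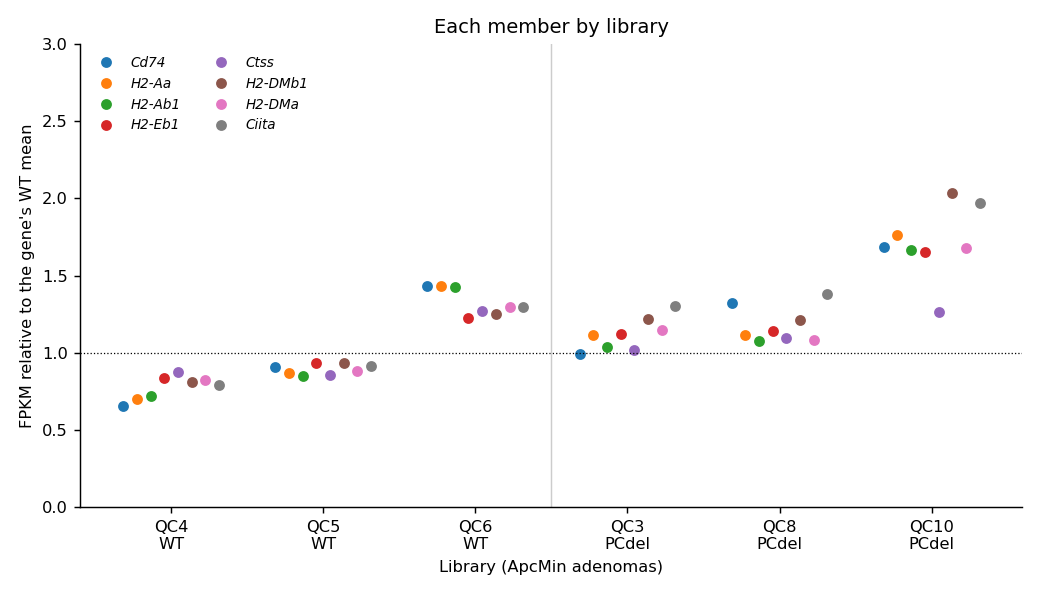
FPKM of each member (colours) in each library, divided by the mean of that gene over the 3 WT libraries (dotted line at 1). QC4 and QC5 lie below the line, and QC6 lies above QC3 and QC8 in 7 of 8 members.

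The ratios within a heterodimer varied less over the libraries than its genes did. *H2-Aa* was between 1.07 and 1.18 times *H2-Ab1* in the 6 libraries. The ratio was 1.07, 1.13 and 1.10 in QC4, QC5 and QC6 and 1.18, 1.14 and 1.17 in QC3, QC8 and QC10, with no overlap and no test made. The ratio of *H2-DMb1* to *H2-DMa* was 1.48, 1.59 and 1.46 in the WT libraries and 1.60, 1.68 and 1.82 in the PCdel libraries, also without overlap. Here QC5 (1.594) and QC3 (1.601) were nearly level, no test was made, and both genes share sequence with a neighbour. *Cd74* was between 2.15 and 2.86 times *H2-Aa*, and here the groups overlapped. *H2-Aa* was between 76.3 and 104.5 times *Ciita*, the highest in WT library QC6.

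Among the other 14232 genes tested, 24 had an r of at least 0.95 with the mean z-score of the 8 members over the 6 libraries. The 10 closest were *Snx3* (r = 0.999), *Muc13* (0.988), *Snph* (0.988), *Slc25a44* (0.982), *Tnfsf10* (0.976), *Tap2* (0.973), *Rnf125* (0.972), *Rab5c* (0.971), *H2-DMb2* (0.969) and *Ppp3cc* (0.968). *Snx3*, a sorting nexin, ran from 107.3 FPKM in QC4 to 130.2 in QC10, so a gene with a narrow range shared the order of the members. *Muc13*, a membrane mucin of enterocytes, ran from 387.6 to 576.4 FPKM, and *Tap2*, a subunit of the class I peptide transporter, from 7.58 to 11.0 FPKM. With 6 libraries and this many genes, a high r carries no test.

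The remaining genes of the class II pathway lay on either side of 0. Of 21 genes found, 16 were tested, and 0 passed the adjusted threshold in limma. At an unadjusted p under 0.05, 0 were higher and 0 lower. The median log2 fold change was 0.02, and 9 of 16 means were higher in PCdel adenomas. *March8*, a ubiquitin ligase that acts on class II, had the largest difference, at 34.3, 28.9 and 33.4 FPKM in QC4, QC5 and QC6 and at 28.1, 26.1 and 13.2 FPKM in QC3, QC8 and QC10. Each PCdel library was below each WT library, as in 219 of the 14240 genes tested, and the log2 fold change was -0.57 (SE 0.27). In 1 gene of the list, the promoter factor *Nfya*, each PCdel library was above each WT library, where 6.00% of all genes did so. It was at 14.1, 14.0 and 13.8 FPKM in QC4, QC5 and QC6 and at 16.5, 16.7 and 15.0 FPKM in QC3, QC8 and QC10. *Creb1*, a factor that binds class II promoters, had a log2 fold change of 0.53 (SE 0.22), *H2-DMb2* 0.39 (SE 0.17) and *Ctsl*, a lysosomal protease, 0.28 (SE 0.22). The I-E gene *H2-Eb2* and the DO gene *H2-Ob* stayed below 1 FPKM in every library, and the other DO gene, *H2-Oa*, was at 0.479, 0.447 and 0.764 FPKM in QC4, QC5 and QC6 and at 0.656, 0.827 and 1.21 FPKM in QC3, QC8 and QC10. With a mean under 1 FPKM, *H2-Oa* was not tested, and its groups overlapped.

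Genes of the interferon gamma axis, a list of the cytokine, its receptor and signal chain and known targets, had means that were higher in PCdel adenomas in 18 of 20 tested. Of 22 genes found, 20 were tested, and 0 passed the adjusted threshold in limma. At an unadjusted p under 0.05, 9 of 20 were higher in PCdel adenomas and 0 lower, where 2.70% of all genes were higher. In 9 genes the groups did not overlap and PCdel was higher, where 6.00% of all genes did so. The median log2 fold change was 0.33. Across alternative fits the unadjusted count lay between 6 and 11, and was 5 of 10 at a mean of at least 5 FPKM.

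*Iigp1*, an immunity-related GTPase, was at 2.40, 3.11 and 3.16 FPKM in QC4, QC5 and QC6 and at 8.70, 4.28 and 4.81 FPKM in QC3, QC8 and QC10. *Cxcl9*, a T cell chemokine, was at 1.19, 1.57 and 2.25 FPKM and at 4.39, 3.09 and 2.67 FPKM, respectively. In *Iigp1* and *Cxcl9* the groups did not overlap, and QC3 was the highest PCdel library, not QC10 as in the class II genes. The log2 fold change was 0.78 (SE 0.24) for *Iigp1* and 0.71 (SE 0.20) for *Cxcl9*. The GTPases *Igtp* and *Irgm2* had log2 fold changes of 0.64 (SE 0.25) and 0.50 (SE 0.14), with QC10 the highest library in both. In QC3, QC8 and QC10 *Igtp* was at 17.1, 11.4 and 20.7 FPKM and *Irgm2* at 11.8, 10.2 and 14.4 FPKM. The groups overlapped for *Igtp* and not for *Irgm2*. These genes overlap each other on the same strand, so the split of reads between them is uncertain. The r of the 20 tested genes with the mean z-score of the class II members lay between -0.28 and 0.86, with a median of 0.48. *Ifng* itself was at 0.0487, 0 and 0 FPKM in QC4, QC5 and QC6 and at 0.130, 0.0748 and 0.0959 FPKM in QC3, QC8 and QC10. Each PCdel library was above each WT library, but all values were near 0 and *Ifng* was not tested.

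**Figure D3:**
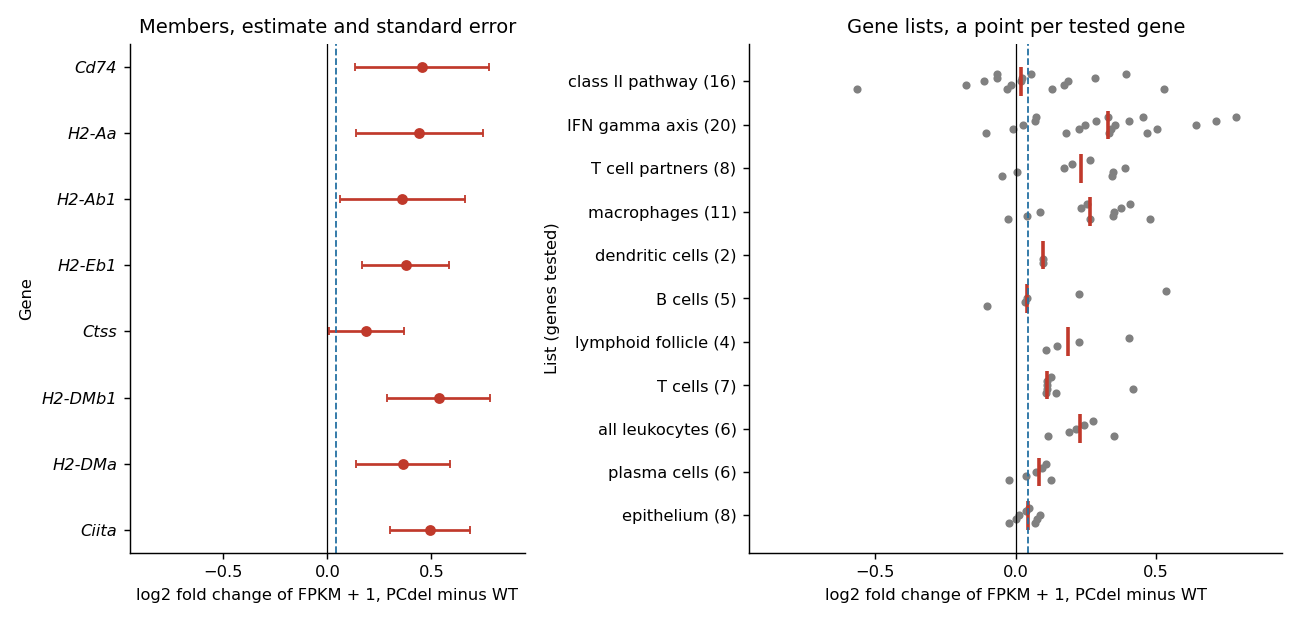
Log2 fold change of FPKM + 1 (PCdel minus WT). Left, the 8 members with standard errors from limma. Right, each tested gene of the other lists (grey points), with the median of the list (red bar) and the number tested in brackets. The dashed line is the median of all genes tested, 0.042. The medians of the members (0.41) and of the interferon gamma axis (0.33) lie to its right, and that of the epithelium list (0.04) lies on it.

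The list of T cell partners held costimulation genes, genes of the CD4 T cell side, and the ligand and partners of *Cd74*. Of its 16 genes, 8 were tested and 0 passed the adjusted threshold in limma. The list included abundant genes of many cell types, *Mif* at 150.1 to 265.4 FPKM and *Cd44* at 23.0 to 40.2 FPKM, whose groups overlapped. At an unadjusted p under 0.05, 2 of 8 were higher in PCdel adenomas, where 2.70% of all genes were. These were *Cd40* and *Lag3*. *Cd40*, listed under costimulation, was at 0.605, 1.25 and 0.771 FPKM in QC4, QC5 and QC6 and at 1.38, 1.25 and 1.67 FPKM in QC3, QC8 and QC10. *Lag3*, a receptor for class II listed on the CD4 T cell side, had a log2 fold change of 0.34 (SE 0.14). *Cd4*, the coreceptor for class II, was at 1.27, 1.36 and 2.34 FPKM in QC4, QC5 and QC6 and at 2.19, 2.30 and 2.46 FPKM in QC3, QC8 and QC10, with overlap through QC6. *Cd86*, also listed under costimulation, had a log2 fold change of 0.26 (SE 0.14). The count of 2 depended on single libraries, with 0 without QC3, QC4 or QC8 and 1 without QC5 or QC10.

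Markers of the cells that carry class II were set beside the members, by whole lists. Of the macrophage list 11 of 12 genes were tested, and 4 had an unadjusted p under 0.05 and did not overlap, all higher in PCdel adenomas, where 2.70% and 6.00% of all genes did so. These were *Fcgr1* (log2 fold change 0.48, SE 0.11), C1qc (0.41, SE 0.12), *Adgre1* (0.38, SE 0.14) and C1qb (0.35, SE 0.12). The macrophage list summed to between 119.7 and 169.1 FPKM in WT and between 154.7 and 174.6 FPKM in PCdel libraries, with QC8 the highest, and its median log2 fold change was 0.26. The count of 4 was 1 without QC5, 2 without QC8 and 7 without QC6, and 0 of the 11 passed the adjusted threshold in limma.

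Of the dendritic cell list 2 of 10 genes were tested, and 0 had an unadjusted p under 0.05. *Itgax* and *Ccl22* each had a log2 fold change of 0.10 (SEs 0.16 and 0.12), and the list summed to between 8.86 and 10.6 FPKM in WT and between 8.20 and 11.1 FPKM in PCdel libraries. Of the B cell list 5 of 12 genes were tested, 0 had an unadjusted p under 0.05, and the median log2 fold change was 0.04. It summed to between 21.0 and 34.6 FPKM in WT and between 27.6 and 28.7 FPKM in PCdel libraries. Among its tested genes the log2 fold changes ran from -0.10 for *Cd37* to 0.54 for *Spib* (SEs 0.24 and 0.48), with 0.23 for *Fcrla* (SE 0.20) and 0.04 for *Cd79a* (SE 0.18). The B cell genes *Fcer2a* (0 in all libraries), *Ms4a1* (at most 0.141 FPKM) and *Pax5* (at most 0.020 FPKM) were at or near 0.

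Of 8 genes of lymphoid follicles 4 were tested, 0 had an unadjusted p under 0.05, and *Ccl19* and *Glycam1* were at 0 in all libraries. The list summed to between 8.73 and 11.5 FPKM in WT and between 11.0 and 15.5 FPKM in PCdel libraries, with a median log2 fold change of 0.19. The most abundant gene of the list was *Ccl21a*, at 4.44, 6.71 and 4.74 FPKM in QC4, QC5 and QC6 and at 5.82, 5.39 and 7.85 FPKM in QC3, QC8 and QC10. The largest log2 fold change was that of *Cxcl13* (0.40, SE 0.24). It was at 1.02, 0.886 and 1.70 FPKM in QC4, QC5 and QC6 and at 1.41, 1.51 and 2.94 FPKM in QC3, QC8 and QC10. *Cxcl13*, a B cell chemokine, was thus highest in the same library of each group as the members.

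The list of all leukocytes summed to between 72.8 and 107.4 FPKM in WT and between 98.3 and 116.7 FPKM in PCdel libraries, with a median log2 fold change of 0.23 and 0 of 6 genes below an unadjusted p of 0.05. The T cell list (7 of 8 tested, median 0.11) summed to between 18.4 and 41.5 FPKM and between 27.2 and 36.0 FPKM, respectively. Plasma cell genes (6 of 6 tested, median 0.08) and epithelial genes (8 of 8 tested, median 0.04) had 0 genes below an unadjusted p of 0.05. Their sums were between 1455 and 2309 FPKM in WT and between 1547 and 1895 FPKM in PCdel libraries for plasma cells, and between 5652 and 7517 FPKM and between 6225 and 7940 FPKM for epithelium. QC6 had the highest sum of the B cell, T cell and plasma cell lists and the lowest sum of the epithelial list. *Jchain* alone was at 2012 FPKM of the plasma cell sum of 2309 in QC6. Not every gene of these lists followed its sum. For example, *Spib* was highest in QC8, *Cd2*, *Sdc1* and *Xbp1* were lowest in QC6, and *Krt20* and *Vil1* in QC6 were second to QC10. The part of these cell types in the level of the members was not tested.

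The level of *H2-Aa* and *Ciita* was also read relative to genes of other cells, without a test. *H2-Aa* was at 42.1, 43.2 and 44.3 times *Ptprc*, a gene of all leukocytes, in QC4, QC5 and QC6 and at 37.7, 34.4 and 67.3 times in QC3, QC8 and QC10. QC3 and QC8 were below the WT libraries and QC10 above them. *Ciita* was at 0.504, 0.479 and 0.424 times *Ptprc* in QC4, QC5 and QC6 and at 0.465, 0.451 and 0.794 times in QC3, QC8 and QC10. Against the dendritic cell gene *Itgax*, *H2-Aa* was at 69.8, 68.8 and 105.4 times in the WT libraries and 74.2, 76.1 and 175.0 times in the PCdel libraries. Against the summed C1q genes it was at 2.21, 2.82 and 3.80 times and at 2.74, 2.45 and 4.37 times, respectively. Against *Coro1a*, another leukocyte gene, chosen after its values had been seen, it was at 14.3, 18.3 and 22.7 times and at 20.2, 20.8 and 27.7 times. In each of these ratios the groups overlapped and QC10 was the highest library, by a margin that was wide for *Ptprc* and *Itgax* and narrower for the C1q genes and *Coro1a*. Against the epithelial gene *Epcam*, *H2-Aa* was at 0.200, 0.246 and 0.528 times in QC4, QC5 and QC6 and at 0.379, 0.362 and 0.477 times in QC3, QC8 and QC10, with QC6 the highest.

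**Figure D4:**
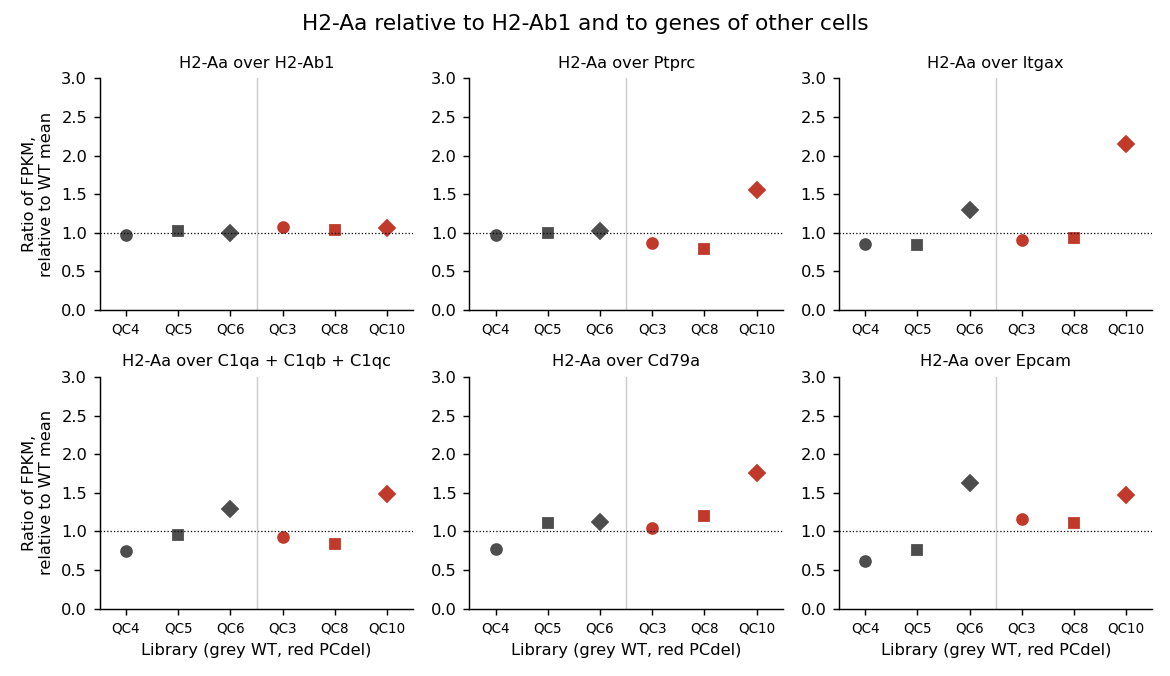
Ratio of the FPKM of *H2-Aa* to that of *H2-Ab1*, of leukocyte, dendritic cell, macrophage and B cell genes and of the epithelial gene *Epcam*, in each library, divided by the mean of the 3 WT libraries. The ratio to *H2-Ab1* is nearly flat, and QC10 is the highest in the ratios to *Ptprc*, *Itgax*, the C1q genes and *Cd79a*.

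A pair of genes that mark position along the small intestine, chosen after their values had been seen, were read beside the members. *Fabp6*, a gene of the distal small intestine, was at 8.22, 23.6 and 2.39 FPKM in QC4, QC5 and QC6 and at 6.18, 1477 and 630.2 FPKM in QC3, QC8 and QC10. *Apoa4*, a gene of absorptive cells of the proximal small intestine, was at 1403, 1512 and 7440 FPKM in QC4, QC5 and QC6 and at 2436, 2369 and 1813 FPKM in QC3, QC8 and QC10. QC8 and QC10 thus stood apart for *Fabp6* and QC6 for *Apoa4*. The part of gut position in the class II levels was not tested.

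The size of the class II difference moved with single libraries, and its direction did not. When the libraries were left out singly, the log2 fold change of *H2-Aa* lay between 0.22 (without QC4) and 0.73 (without QC6), that of *Cd74* between 0.19 (without QC4) and 0.75 (without QC6), and that of *Ciita* between 0.34 (without QC10) and 0.65 (without QC6). It was positive for all 8 members in all 6 of these fits. Without QC6, all 8 members had an unadjusted p under 0.05, from 0.0128 for *Ciita* to 0.0399 for *H2-Eb1*, and in all 8 the groups did not overlap. Of all genes, 3.42% were higher at this threshold and 11.4% did not overlap and were higher in that fit, and 0 members passed the adjusted threshold in limma. Without QC4, QC5, QC8 or QC10, 0 members had an unadjusted p under 0.05.

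**Figure D5:**
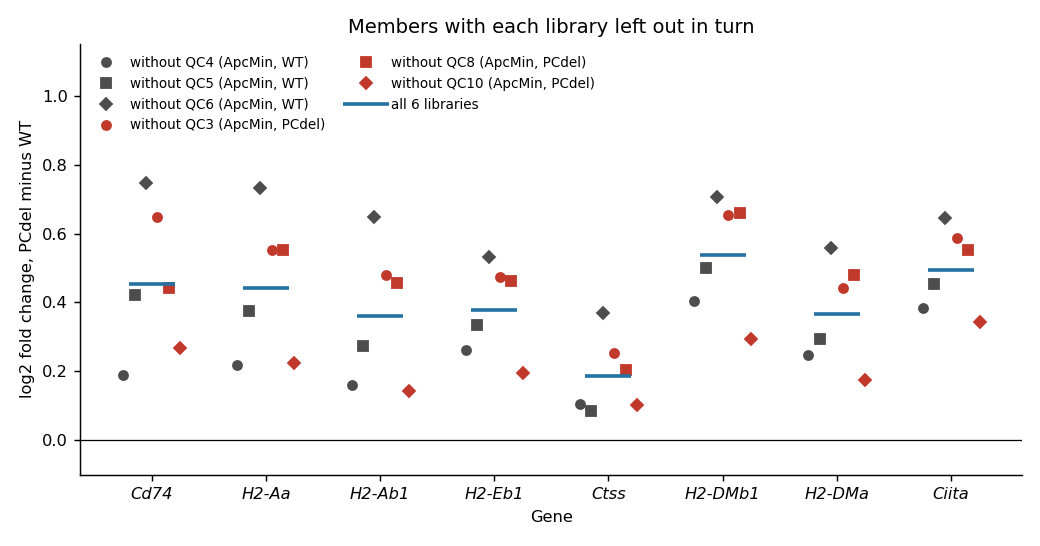
Log2 fold change of each member (PCdel minus WT, on FPKM + 1) when each library in turn is left out (symbols), beside the value with all 6 libraries (blue bars). All points are above 0, the highest without QC6 and the lowest without QC10, QC4 or QC5.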

How the data were processed

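RNA from small intestinal adenomas of ApcMin PCdel and ApcMin WT mice was prepared with a TruSeq RNA kit, as 3 libraries per group. The sequencing, alignment and normalization are named in the methods as HiSeq2500, CLC Genomics Workbench and MatLab. The program that made the deposited tables is not given in the sources used here. The authors deposited FPKM and TPM per gene, scaled by them for gene length and library size, and an unscaled mean coverage signal per gene, which was used here only for the depth of each library. Gene positions are those of the files, and of 48058 genes matched by identifier 93.1% share a start or end with GENCODE's GRCm38 annotation.

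Genotypes were compared with limma 3.58.1 in R 4.3.3 (lmFit, eBayes with trend) on log2(FPKM + 1), which understates the change of low genes, for 14240 genes with a mean of at least 1 FPKM, with Benjamini-Hochberg adjustment over all of them and a threshold of 0.05. Single values were compared by exact two-sided permutation. Read counts were not used here, so no count model and no counting interval is given. Shared sequence is the percent of the 31-mers of a gene found in transcripts of other genes. The members and lists were chosen with earlier results of these data known. Named are the 8 members, up to 4 genes per list with the largest absolute log2 fold change, defining markers at 0, and the 10 genes most like the members. Alternatives were a pseudocount of 0.1, other filters and scalings, other variance models and each library left out.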

Additional observations from a re-analysis of the deposited data

How the results depend on the processing

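No paired analysis was possible because no replicate numbers tie a WT library to a PCdel library. In each of the 14 alternatives the 8 members had a positive log2 fold change and an adjusted p above 0.05 (13 for *Ciita*, which is not tested at a mean of at least 5 FPKM). With each library left out they ranged from 0.22 to 0.73 for *H2-Aa*, 0.14 to 0.65 for *H2-Ab1*, 0.19 to 0.53 for *H2-Eb1*, 0.18 to 0.56 for *H2-DMa*, 0.29 to 0.71 for *H2-DMb1*, 0.19 to 0.75 for *Cd74*, 0.086 to 0.37 for *Ctss* and 0.34 to 0.65 for *Ciita*.

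The count of members with an unadjusted p under 0.05 moved from 1 to 0 with no filter, a mean of at least 5 FPKM, quantile normalization and median centring, to 2 with TPM (3.65% of all genes, against 2.70%) and to 6 with array quality weights (5.66% of all genes), which gave QC6 a weight of 0.237 and QC5 one of 3.09. It ranged from 0 to 8 with each library left out. The count of members without overlap moved from 1 to 2 with TPM (9.22% of all genes, against 6.00%) and to 0 with quantile normalization and median centring, and ranged from 1 to 8. The count of all genes past the adjusted threshold moved from 2 to 1 with no filter and with median centring, and ranged from 1 (without QC3, QC5, QC8 or QC10) to 5 (without QC4). Among all genes with an unadjusted p under 0.05, 384 were higher and 97 lower, against 261 and 182 with quantile normalization, 277 and 174 with median centring, 520 and 71 with TPM, 806 and 464 with array quality weights, and 487 and 333 without QC6.

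The alternatives for the other lists were added after the data were seen. For the interferon gamma axis the count of 9 was 5 at a mean of at least 5 FPKM, which leaves 10 genes, and ranged from 6 to 9 with each library left out. For the macrophage list the count of 4 was 2 at a mean of at least 5 FPKM and 2 with median centring, and ranged from 1 to 7. For the T cell partners the count of 2 was 1 with a pseudocount of 0.1 and 0 at a mean of at least 5 FPKM, with quantile normalization and with median centring, and ranged from 0 to 2. The cause was not tested. The number of libraries, not their depth, sets the smallest exact permutation p of 0.1.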

Other observations

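The class II genes lie among genes of the class I pathway, which were read as their neighbours after the values of the members had been seen. From the first base of *H2-DMa* to the last of *H2-Eb1* (chromosome 17, 34135182 to 34316199, 181 kb), 11 genes were tested, 5 of them members. All 6 others had a higher mean in PCdel adenomas, with log2 fold changes between 0.23 and 0.70 and a median of 0.55, where 63.1% of all genes had a higher mean, and 0 had an adjusted p under 0.05 in limma. *Psmb8*, a subunit of the immunoproteasome, was at 24.4, 31.1 and 38.2 FPKM in QC4, QC5 and QC6 and at 53.5, 36.6 and 66.5 FPKM in QC3, QC8 and QC10 (log2 fold change 0.70, SE 0.25). *Psmb9*, another subunit, was at 9.97, 12.5 and 16.8 FPKM in QC4, QC5 and QC6 and at 18.2, 15.8 and 32.0 FPKM in QC3, QC8 and QC10 (log2 fold change 0.67, SE 0.29). In each of these the groups overlapped through QC6 and QC8. *Tap1*, a subunit of the class I peptide transporter, was at 7.94, 6.20 and 7.77 FPKM and at 9.67, 7.98 and 13.5 FPKM, respectively. Its groups did not overlap, but QC4 and QC8 were nearly level, and its unadjusted p in limma was 0.0625. *Tap1* and *Gm20496* were the neighbours without overlap, where 6.00% of all genes did not overlap and were higher. *Psmb8* and *Gm20496* had an unadjusted p under 0.05 (0.0281 and 0.0339), where 2.70% of all genes were higher at this threshold, and *Gm20496* overlaps *Psmb8* and *Tap2*, so its reads cannot be assigned with certainty. *B2m*, the light chain of class I on another chromosome, was at 850.3, 886.7 and 1687 FPKM in QC4, QC5 and QC6 and at 1197, 1245 and 1622 FPKM in QC3, QC8 and QC10, with QC6 the highest library as for *Ctss*.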
